A study of Homo sapiens with 8 samples.

Results

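Heat shock proteins and cytosolic chaperones were followed in SW1353 cells, an established human chondrosarcoma line used as a model of chondrocytes. The members were chosen by name, with earlier results of these data known, so their shares beside all genes are descriptions only. The 43 genes listed take in the heat shock transcription factors, the heat shock protein families, their co-chaperones, the mitochondrial chaperonin and the subunits of the cytosolic chaperonin CCT. Of these, 40 were measured, that is, at least 1 of their probes stood above background (detection p under 0.05) on 2 or more of the 8 arrays, out of 11182 such genes in all. HSF2, BAG2 and AHSA1 had no probe listed under 1 gene symbol.

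RNA was profiled on Illumina whole-genome arrays in 4 groups of 2 arrays. The siCon cells were transfected with the AllStars control siRNA, which has no target, and the siHDAC6 cells with a QIAGEN siRNA against HDAC6, 24 h before stimulation. The siCon + IL-1 and siHDAC6 + IL-1 cells were then given IL-1α for 6 h. The sample labels and the legend of the study's supplementary dataset for these arrays give this time, although a figure legend gives a longer one. By the methods, cells were washed after transfection and kept overnight without serum before stimulation. The treatment was done in duplicate, and nothing states that the duplicates were separate cultures, so the p-values reflect the spread within these pairs, which may be technical. Values below are normalized log2 signals, in which a difference of 1 is a doubling, and a gene was called when limma's moderated test gave a Benjamini-Hochberg adjusted p under 0.05 over all 11182 genes.

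HDAC6 mRNA was 6.36 and 6.32 on the siCon arrays, 6.63 and 6.46 with siCon + IL-1, 5.14 and 4.87 with siHDAC6, and 4.84 and 4.87 with siHDAC6 + IL-1. All 4 siHDAC6 arrays lay below all 4 siCon arrays, and HDAC6 was detected on 1 of these 4. Of 14 chondrocyte markers 6 were measured, among them SOX9 and HAPLN1 on 8 arrays and COL2A1 on 4, whereas ACAN, COMP, MATN3, PRG4, SOX5, SOX6, COL9A2 and COL9A3 were detected on none. The 6 summed to 616 to 656 signal units in siCon cells, 374 to 391 with siCon + IL-1, 570 to 637 with siHDAC6 and 448 to 470 with siHDAC6 + IL-1. All 5 mesenchymal markers were measured and summed to 16300 to 17500, 15100 to 15200, 18800 to 19000 and 16600 on both arrays, in the same order. COL1A1 rose with siHDAC6 by 0.85 without IL-1 and by 0.71 with IL-1 (adjusted p = 0.0088 and 0.013). VIM, COL1A2, COL3A1 and FN1 were not called with siHDAC6, and FN1 had log2 fold changes of -0.29 and -0.45 (adjusted p = 0.25 and 0.069). Of the leukocyte markers PTPRC, CD14 and CD3E were detected on no array, and the 2 that were measured, CD68 and LYZ, summed to 1130 to 1200 signal units in siCon cells, 1490 to 1610 with siCon + IL-1, 810 to 863 with siHDAC6 and 900 to 965 with siHDAC6 + IL-1. The 3 measured epithelial and endothelial markers (EPCAM, KRT8 and VWF, with CDH1 and CDH5 on no array) summed to 202 to 234, 175 to 186, 170 to 179 and 159 to 167 in the same order. Other markers called with siHDAC6 were CD68 (-0.49 without and -0.72 with IL-1), VWF (-1.29 without IL-1), LYZ (-0.92 with IL-1) and HAPLN1 (0.72 with IL-1). SOX9 was the only chondrocyte marker called with IL-1. Its log2 fold change was -1.16 under siCon (adjusted p = 3.6e-04) and -0.67 under siHDAC6 (adjusted p = 0.011). The lower chondrocyte sums with IL-1 were therefore not shown to be a fall of the whole list. COL1A2 (-0.40), CD68 (0.40) and LYZ (0.63) were called with IL-1 under siCon but not under siHDAC6. The part of these shifts in the results below was not tested.

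Chaperones bind unfolded or partly folded proteins and help them to fold, to assemble or to be handed on for degradation. HSP70 proteins work in cycles of ATP binding with J-domain proteins, which deliver the client and trigger hydrolysis, and with exchange factors such as the BAG and HSP110 proteins, which release it. HSP90 takes over many signalling proteins from HSP70 with the help of its own co-chaperones, and the ring-shaped CCT complex folds actin and tubulin. HSF1 drives many genes of this system through the heat shock element, an array of inverted GAA units in their promoters. HDAC6 is a largely cytoplasmic deacetylase whose known substrates include tubulin and HSP90, and it forms a complex with VCP and HSP90.

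The promoter stretches of members on which the results turn are shown first. The heat shock element is a feature of many heat shock genes, but the members were chosen by name and not by this element. Windows from 250 bases before to 50 bases from the transcription start were taken from RefSeq (GRCh38.p14). They were searched for 2 inverted units, GAANNTTC or TTCNNGAA, each of which reads the same on both strands, and for the longer forms with 3 alternating units, whose matches always overlap 2 of the shorter ones. Of the 40 measured members 35 were in this table, and CRYAB, FKBP4, HSF1, HSPA14 and STUB1 were not. In the 60-base stretches below, written 5′ to 3′ on the gene's strand, capitals mark the GAA and TTC letters of every match to the 2-unit form.
HSPA1A, chr6:31815411-31815470, plus strand: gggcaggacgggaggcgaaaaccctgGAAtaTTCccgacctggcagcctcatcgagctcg
HSPA1B, chr6:31827607-31827666, plus strand: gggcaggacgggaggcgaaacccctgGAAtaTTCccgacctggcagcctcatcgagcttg
DNAJA1, chr9:33025252-33025311, plus strand: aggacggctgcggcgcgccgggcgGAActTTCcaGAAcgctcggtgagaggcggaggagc
DNAJB1, chr19:14518426-14518485, minus strand: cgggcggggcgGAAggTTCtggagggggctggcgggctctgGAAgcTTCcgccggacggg
DNAJB6, chr7:157336849-157336908, plus strand: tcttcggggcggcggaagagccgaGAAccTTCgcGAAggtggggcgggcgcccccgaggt
HSPB1, chr7:76302465-76302524, plus strand: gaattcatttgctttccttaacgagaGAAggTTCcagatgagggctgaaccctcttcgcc
HSP90AA1, chr14:102087089-102087148, minus strand: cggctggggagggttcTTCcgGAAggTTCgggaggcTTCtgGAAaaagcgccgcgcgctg
CCT2, chr12:69585774-69585833, plus strand: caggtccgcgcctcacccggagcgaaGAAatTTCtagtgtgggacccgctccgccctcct

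A 2-unit match was found in 19 of the 35 members (54.3%) and in 16.2% of the 27305 genes of the table. By window, 40.8% of the 49 member windows and 13.5% of all 35116 windows held one. The 3-unit form was found in 7 members (20.0%), namely CHORDC1, DNAJA1, DNAJB6, HSP90AA1, HSP90AB1, HSPA8 and HSPD1, against 0.608% of all genes, and in 14.3% of member windows against 0.49% of all windows. These counts describe the letters only, since the members were chosen as heat shock genes. The HSPA1A and HSPA1B windows were identical at 277 of 299 aligned bases (92.6%), and both held 1 match, starting at -106 and -105 from the transcription start. HSP90AA1 had 3 matches between -88 and -68, whereas in DNAJA1 the 3-unit form began at base 4 of the transcript. Among the called members in the table, BAG3 and PTGES3 held no match in these windows.

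Called members went in both directions in every comparison with calls except siHDAC6 without IL-1, in which all were lower. With IL-1 in siCon cells 7 of 40 members were called (17.5%), against 20.6% of all genes tested, 3 higher (all genes, 9.37%) and 4 lower (11.2%). The members' share lay close to that of all genes. HSPA1A, HSPA1B and DNAJA1 rose and HSPA14, FKBP4, DNAJB1 and BAG3 fell. The median log2 fold change of the 40 members was -0.16 beside -0.09 for all genes, and 33 members (82.5%) lay below 0, against 62.2% of all genes. With IL-1 in siHDAC6 cells 3 of 40 were called (7.5%), against 10.3% of all genes: HSPA1B and DNAJA1 rose (all genes called higher, 5.99%) and DNAJB1 fell (lower, 4.27%). The median was -0.09 beside -0.06 for all genes.

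siHDAC6 without IL-1 gave 3 called members of 40 (7.5%), against 4.05% of all genes, and PTGES3, STUB1 and CCT2 all fell (of all genes, 2.41% were called lower and 1.64% higher). The median of the members was -0.09 beside 0.01 for all genes. siHDAC6 with IL-1 gave 4 called members (10%), against 8.07% of all genes: HSPB1 rose (all genes called higher, 3.65%), and HSPA1B, DNAJB6 and CCT2 fell (lower, 4.42%). The median was 0.04 beside 0.03. Each group enters 2 of these comparisons, so their values are not independent.

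**Figure D1:**
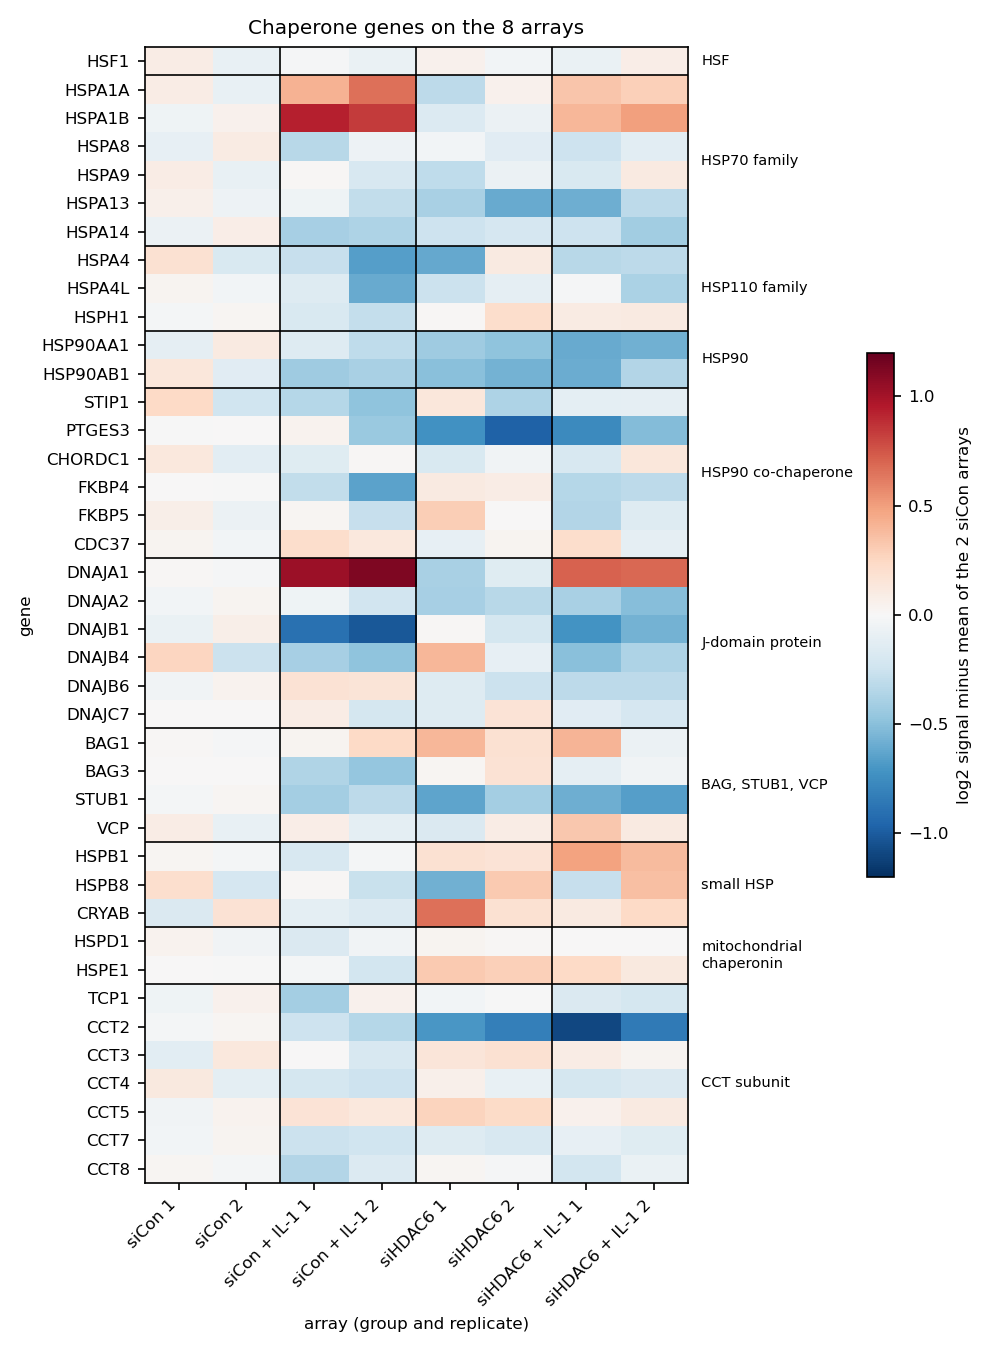
Normalized log2 signal of the 40 measured members (rows, in blocks by role) on the 8 arrays (columns), drawn as the difference from the mean of the 2 siCon arrays; red is higher and blue lower. DNAJA1 and HSPA1B were red on all 4 IL-1 arrays, DNAJB1 was blue on them, and CCT2 was blue on all 4 siHDAC6 arrays.

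HSF1, the main transcription factor of the heat shock response, was measured close to background, and each of its 2 probes was detected on 5 of the 8 arrays. Its signal was 5.16 and 4.98 with siCon, 5.06 and 4.99 with siCon + IL-1, 5.12 and 5.04 with siHDAC6, and 4.99 and 5.15 with siHDAC6 + IL-1. The groups overlapped. Its log2 fold changes ran from -0.04 to 0.05 over the 4 comparisons and none was called, but the 2 probes moved apart (with IL-1 in siHDAC6 cells, -0.31 and 0.29), so no direction was measured for this gene.

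HSPA1B encodes the stress-inducible HSP70. It was 10.25 and 10.35 on the siCon arrays, 11.23 and 11.14 with siCon + IL-1, 10.14 and 10.23 with siHDAC6, and 10.70 and 10.79 with siHDAC6 + IL-1. All 4 IL-1 arrays lay above all 4 arrays without IL-1, and among the IL-1 arrays those with siHDAC6 were the lower. IL-1 raised it 1.85-fold in siCon cells (log2 fold change 0.89, standard error 0.10, adjusted p = 7.3e-04) and 1.48-fold in siHDAC6 cells (0.56, standard error 0.10, adjusted p = 0.012). The first call held in all 10 alternative analyses and without any 1 of the 8 arrays. The second held in the 10 alternatives but was lost without any 1 of the 4 siHDAC6 and siHDAC6 + IL-1 arrays (adjusted p = 0.051 to 0.088). With IL-1 present, HSPA1B fell by 0.44 with siHDAC6 (adjusted p = 0.042), a call that was lost in 3 of the 10 alternatives and without any 1 of the 8 arrays (adjusted p = 0.066 to 0.18). Without IL-1 its log2 fold change with siHDAC6 was -0.12 (95% interval -0.36 to 0.12, adjusted p = 0.60).

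HSPA1A, a near-identical copy of HSPA1B that lies beside it on chromosome 6, gave 10.43 and 10.25 with siCon, 10.76 and 11 with siCon + IL-1, 10.03 and 10.39 with siHDAC6, and 10.67 and 10.63 with siHDAC6 + IL-1. The IL-1 arrays again lay above the others, with a wider spread between replicates. It rose with IL-1 in siCon cells (log2 fold change 0.54, standard error 0.15, adjusted p = 0.041), and in siHDAC6 cells the log2 fold change was 0.44 (95% interval 0.09 to 0.79, adjusted p = 0.12). The call was lost in 3 of the 10 alternatives, without either siCon array, without siCon + IL-1 replicate 2 and without either siHDAC6 + IL-1 array (adjusted p = 0.065 to 0.19). Each of these genes was measured by 1 probe, and how far a probe also binds the transcript of the other copy was not tested, so the values of HSPA1A and HSPA1B may not be separate measurements.

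No other HSP70 gene was called higher. HSPA8, the constitutive HSC70, was 12.23 and 12.43 with siCon, 12 and 12.27 with siCon + IL-1, 12.30 and 12.19 with siHDAC6, and 12.08 and 12.20 with siHDAC6 + IL-1. The groups overlapped, and its log2 fold changes lay between -0.20 and 0 with no call. HSPA14, a ribosome-associated HSP70, was 7.65 and 7.80 with siCon and 7.33 and 7.35 with siCon + IL-1, against 7.48 and 7.52 with siHDAC6 and 7.48 and 7.31 with siHDAC6 + IL-1. The siCon arrays were the highest. In siCon cells stimulated with IL-1 it fell by 0.38 (standard error 0.11, adjusted p = 0.043), and the call was lost in 3 of the 10 alternatives and without any 1 of the 8 arrays (adjusted p = 0.054 to 0.20). HSPA9, the mitochondrial HSP70, and HSPA13 passed the threshold in no comparison.

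The HSP110 genes, whose products act as exchange factors for HSP70, had no called member. HSPA4, HSPA4L and HSPH1 had log2 fold changes of -0.47 to -0.23 with IL-1 in siCon cells and of -0.08 to -0.01 in siHDAC6 cells. With siHDAC6 they had -0.25 to 0.12 without IL-1 and 0.15 to 0.34 with IL-1. The highest was HSPH1 with IL-1 (0.34, adjusted p = 0.10), called in 4 of the 10 alternatives. HSPA4L was near background and detected on 7 of the 8 arrays.

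HSP90AA1, the inducible cytosolic HSP90, was 9.60 and 9.82 with siCon, 9.56 and 9.41 with siCon + IL-1, 9.28 and 9.23 with siHDAC6, and 9.11 and 9.13 with siHDAC6 + IL-1. All 4 siHDAC6 arrays lay below all 4 siCon arrays. The log2 fold change with siHDAC6 was -0.45 without IL-1 (95% interval -0.72 to -0.19, adjusted p = 0.073) and -0.37 with IL-1 (-0.64 to -0.10, adjusted p = 0.092), so neither was called, whereas each was called in 5 of the 10 alternative analyses. Its 3 probes were all lower with siHDAC6, by -0.54, -0.49 and -0.34 without IL-1. The first of these lay near background (mean 5.17, detected on 5 of the 8 arrays) and enters the average. With IL-1, when probes were tested singly, the second was called (-0.61, adjusted p = 0.025). The first and the third were not (-0.22 and -0.29, adjusted p = 0.50 and 0.23).

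HSP90AB1, the constitutive form, was 11.18 and 10.90 with siCon and lay between 10.44 and 10.69 on the other 6 arrays. The siCon arrays were thus the highest of all. Its log2 fold change was -0.54 with siHDAC6 (95% interval -0.85 to -0.23, adjusted p = 0.070) and -0.41 with IL-1 in siCon cells (-0.72 to -0.10, adjusted p = 0.069), against -0.07 for siHDAC6 in the presence of IL-1. No call was made, and each of the first 2 was called in 5 of the 10 alternatives.

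Among the HSP90 co-chaperones PTGES3, or p23, which stabilises the closed ATP-bound form of HSP90, was 10.43 and 10.44 with siCon, 10.48 and 9.99 with siCon + IL-1, 9.71 and 9.46 with siHDAC6, and 9.67 and 9.91 with siHDAC6 + IL-1. All 4 siHDAC6 arrays lay below all 4 siCon arrays. It fell by 0.85 on the log2 scale with siHDAC6 without IL-1 (standard error 0.18, adjusted p = 0.042), the largest fall among the members in that comparison. With IL-1 the log2 fold change was -0.44 (95% interval -0.85 to -0.03, adjusted p = 0.17). The call was lost without any 1 of the siCon, siHDAC6 and siHDAC6 + IL-1 arrays (adjusted p = 0.067 to 0.19) and in 3 of the 10 alternatives, and was kept without either siCon + IL-1 array.

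FKBP4, or FKBP52, an immunophilin of the steroid receptor complexes, was 6.18 and 6.17 with siCon, 5.88 and 5.53 with siCon + IL-1, 6.28 and 6.26 with siHDAC6, and 5.83 and 5.86 with siHDAC6 + IL-1. Every IL-1 array lay below every array without IL-1. IL-1 lowered it in siCon cells, where it fell by 0.47 (standard error 0.13, adjusted p = 0.037), and in siHDAC6 cells the log2 fold change was -0.43 (95% interval -0.72 to -0.13, adjusted p = 0.080). The first call was lost without any 1 array other than siCon + IL-1 replicate 1 (adjusted p = 0.060 to 0.16) and in 3 of the 10 alternatives, and in the authors' log2 values the change was -0.14 (adjusted p = 0.096). STIP1, the HSP70-HSP90 adaptor HOP, CDC37, the kinase-specific co-chaperone, CHORDC1 and FKBP5 were called in no comparison.

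The J-domain genes held the largest changes of the family, in opposite directions. DNAJA1, a farnesylated HSP70 partner, was 11.51 and 11.48 with siCon, 12.52 and 12.62 with siCon + IL-1, 11.11 and 11.35 with siHDAC6, and 12.20 and 12.18 with siHDAC6 + IL-1. The IL-1 arrays stood clear of the others in both siRNA conditions. IL-1 raised DNAJA1 2.11-fold in siCon cells (log2 fold change 1.08, standard error 0.11, adjusted p = 4.0e-04) and 1.94-fold in siHDAC6 cells (0.96, standard error 0.11, adjusted p = 0.0013). Both calls held in all 10 alternatives and without any 1 of the 8 arrays. With siHDAC6 its log2 fold change was -0.26 without IL-1 (adjusted p = 0.25) and -0.38 with IL-1 (adjusted p = 0.082), the latter called in 5 of the 10 alternatives.

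DNAJB1, or HSP40, the classical partner of the inducible HSP70, moved the other way. It was 9.12 and 9.27 with siCon, 8.30 and 8.18 with siCon + IL-1, 9.21 and 8.98 with siHDAC6, and 8.48 and 8.63 with siHDAC6 + IL-1. Every IL-1 array lay below every array without IL-1. It fell by 0.96 on the log2 scale in siCon cells (standard error 0.12, adjusted p = 0.0013), in all 10 alternatives and without any 1 of the 8 arrays. In siHDAC6 cells it fell by 0.54 (adjusted p = 0.033), and this call was lost in 2 of the 10 alternatives and without any 1 of the siCon, siHDAC6 and siHDAC6 + IL-1 arrays (adjusted p = 0.053 to 0.18). HSPA1B and DNAJA1 thus rose and DNAJB1 fell with IL-1 under both siRNAs.

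DNAJB6, a J-domain protein that suppresses the aggregation of polyglutamine proteins, was 9.98 and 10.07 with siCon, 10.20 and 10.18 with siCon + IL-1, 9.87 and 9.77 with siHDAC6, and 9.71 on both siHDAC6 + IL-1 arrays. All 4 siHDAC6 arrays lay below all 4 siCon arrays. It fell by 0.48 with siHDAC6 in the presence of IL-1 (standard error 0.10, adjusted p = 0.027), and the log2 fold change without IL-1 was -0.20 (95% interval -0.43 to 0.02, adjusted p = 0.31). Leaving out any 1 of the siCon + IL-1 and siHDAC6 + IL-1 arrays removed the call (adjusted p = 0.075 to 0.12), as did 1 of the 10 alternatives. Its probes disagreed. The 2 detected probes annotated to one transcript gave -0.49 (adjusted p = 0.038) and -0.84 (adjusted p = 0.015), and the probe of the other transcript gave -0.11 (adjusted p = 0.55). Of the remaining J-domain genes, DNAJA2 was -0.37 with siHDAC6 without IL-1 and -0.31 with IL-1 (adjusted p = 0.12 and 0.13), and DNAJB4 and DNAJC7 were not called.

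**Figure D2:**
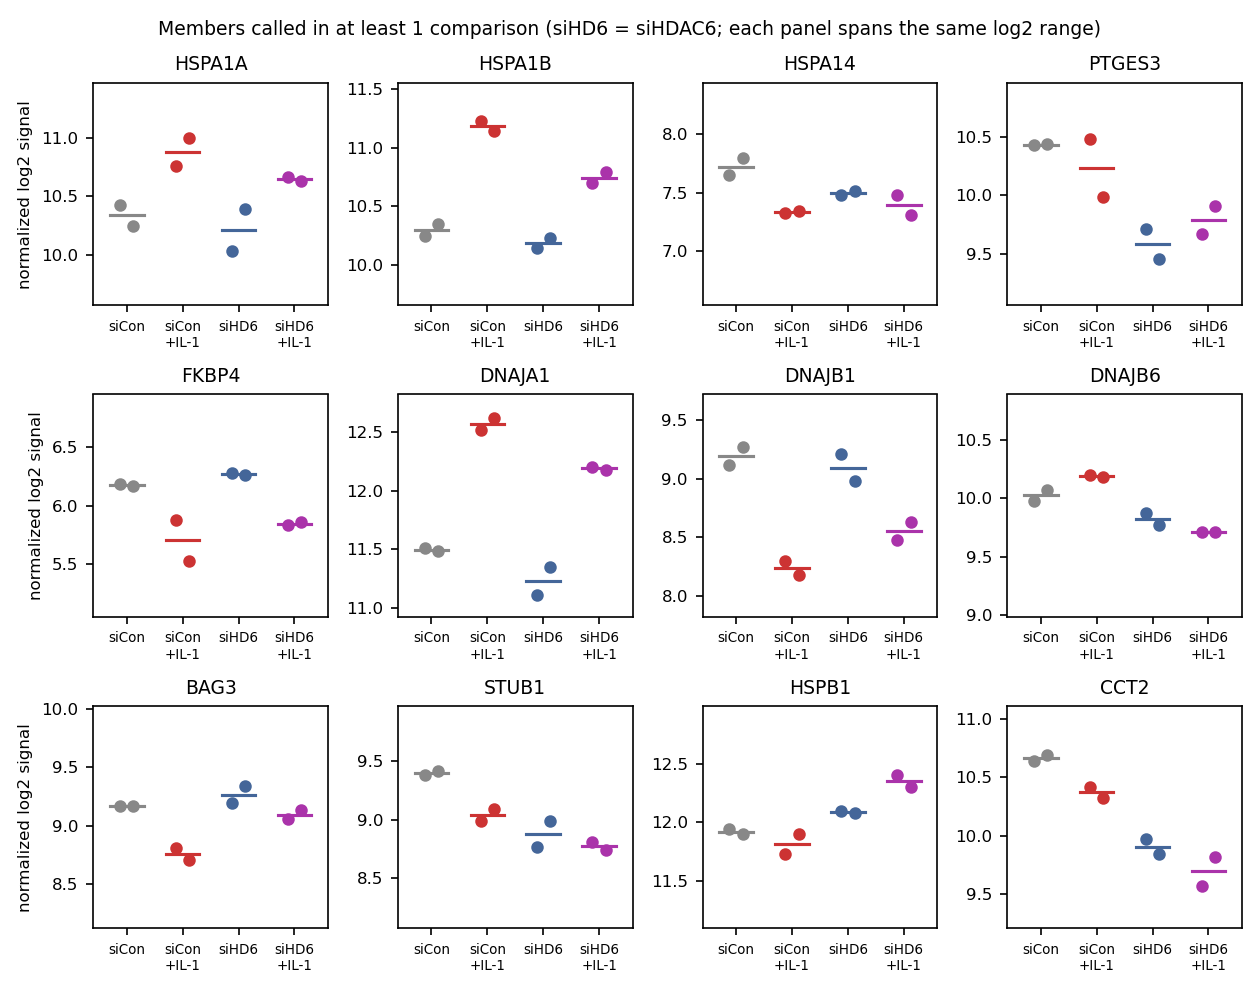
Normalized log2 signal of the 12 members called in at least 1 comparison; points are single arrays, 2 per group, and lines are group means, and all panels span the same log2 range. DNAJA1, HSPA1B and HSPA1A were higher and DNAJB1 and FKBP4 lower on every IL-1 array, and CCT2, PTGES3 and DNAJB6 were lower on every siHDAC6 array than on any siCon array.

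BAG3, an exchange factor that links HSP70 to small heat shock proteins and selective autophagy, was 9.17 on both siCon arrays, 8.81 and 8.71 with siCon + IL-1, 9.19 and 9.34 with siHDAC6, and 9.06 and 9.13 with siHDAC6 + IL-1. The siCon + IL-1 arrays were the lowest. For siHDAC6 in the presence of IL-1 the log2 fold change of BAG3 was 0.34 (adjusted p = 0.090), called in 4 of the 10 alternatives. In siCon cells it fell by 0.41 with IL-1 (standard error 0.10, adjusted p = 0.027), against a log2 fold change of -0.17 in siHDAC6 cells (95% interval -0.41 to 0.07, adjusted p = 0.36). The call was lost in 1 of the 10 alternatives and without any 1 of the siCon and siCon + IL-1 arrays (adjusted p = 0.050 to 0.12). BAG1 lay near background, from 4.60 to 5.08, and was detected on 2 of the 8 arrays, 1 with siHDAC6 and 1 with siHDAC6 + IL-1. It passed the detection filter only through these 2 arrays, so its lack of detection on the others is not a result. Its log2 fold changes with siHDAC6 were 0.29 without and 0.04 with IL-1 (adjusted p = 0.40 and 0.92), and it was called in no comparison.

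STUB1, or CHIP, the ubiquitin ligase that marks HSP70 and HSP90 clients for degradation, was 9.38 and 9.42 with siCon, 8.99 and 9.09 with siCon + IL-1, 8.77 and 8.99 with siHDAC6, and 8.81 and 8.74 with siHDAC6 + IL-1. The siCon arrays were the highest. It fell by 0.52 with siHDAC6 without IL-1 (standard error 0.11, adjusted p = 0.047), a call that was lost in 4 of the 10 alternatives and without any 1 of the 8 arrays (adjusted p = 0.058 to 0.22). Tested singly, its 2 probes gave -0.70 (adjusted p = 0.072) and -0.34 (adjusted p = 0.22). With IL-1 in siCon cells the log2 fold change of STUB1 was -0.36 (adjusted p = 0.060), called in 5 of the 10 alternatives. For siHDAC6 in the presence of IL-1 it was -0.27 (adjusted p = 0.19).

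VCP, the segregase that extracts ubiquitinated proteins, was 8.69 and 8.51 with siCon, 8.68 and 8.48 with siCon + IL-1, 8.43 and 8.69 with siHDAC6, and 8.92 and 8.71 with siHDAC6 + IL-1. The first 3 groups overlapped, and both siHDAC6 + IL-1 arrays lay above all the others. Its log2 fold changes were -0.03 with siHDAC6 without IL-1 and 0.23 with IL-1 (95% interval -0.09 to 0.56, adjusted p = 0.36), and it was called nowhere.

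HSPB1, or HSP27, a small heat shock protein that holds unfolded clients and binds actin, was 11.94 and 11.90 with siCon, 11.73 and 11.90 with siCon + IL-1, 12.10 and 12.08 with siHDAC6, and 12.40 and 12.30 with siHDAC6 + IL-1. All 4 siHDAC6 arrays lay above all 4 siCon arrays. It rose 1.45-fold with siHDAC6 in the presence of IL-1 (log2 fold change 0.54, standard error 0.10, adjusted p = 0.024), the only member called higher with siHDAC6, and the log2 fold change without IL-1 was 0.17 (95% interval -0.07 to 0.41, adjusted p = 0.43). Leaving out any 1 of the siCon + IL-1 and siHDAC6 + IL-1 arrays removed the call (adjusted p = 0.051 to 0.13), as did 1 of the 10 alternatives. CRYAB, the αB-crystallin, had log2 fold changes of 0.42 and 0.31 with siHDAC6 without and with IL-1, and HSPB8 of -0.13 and 0.16, and neither was called.

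The mitochondrial chaperonin pair was called in no comparison. HSPD1, or HSP60, had log2 fold changes of 0.02 and 0.10 with siHDAC6 without and with IL-1, and its co-chaperonin HSPE1 of 0.30 in both (adjusted p = 0.19 and 0.14).

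CCT2 was the one subunit of its complex that was called. It was 10.64 and 10.69 with siCon, 10.42 and 10.32 with siCon + IL-1, 9.97 and 9.84 with siHDAC6, and 9.57 and 9.82 with siHDAC6 + IL-1. All 4 siHDAC6 arrays lay below all 4 siCon arrays. It fell by 0.76 with siHDAC6 without IL-1 (1.69-fold, standard error 0.12, adjusted p = 0.016) and by 0.67 with IL-1 (1.59-fold, standard error 0.12, adjusted p = 0.018), the only member called in both.

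The first of these calls held in all 10 alternatives and was lost without any 1 of the 4 siCon and siHDAC6 arrays (adjusted p = 0.075 to 0.11). The second was lost without either siCon + IL-1 array and without siHDAC6 + IL-1 replicate 1 (adjusted p = 0.058 to 0.10), and in a fit of only the 4 arrays compared (adjusted p = 0.073). The other 6 members among the subunits, TCP1, CCT3, CCT4, CCT5, CCT7 and CCT8, and CCT6A and CCT6B, which were measured outside the member list, had log2 fold changes of -0.17 to 0.26 without IL-1 and of -0.06 to 0.51 with IL-1, and none of these 8 was called. The highest was CCT6B with IL-1 (0.51, adjusted p = 0.15). CCT2 was measured by 1 probe. The 3 TCP1 probes disagreed in sign with siHDAC6 and IL-1 (0.49, -0.30 and -0.25). With IL-1 in siCon cells 8 of the 9 measured subunits lay below 0, from -0.36 to -0.10, against 62.2% of all genes, and no subunit was called.

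**Figure D3:**
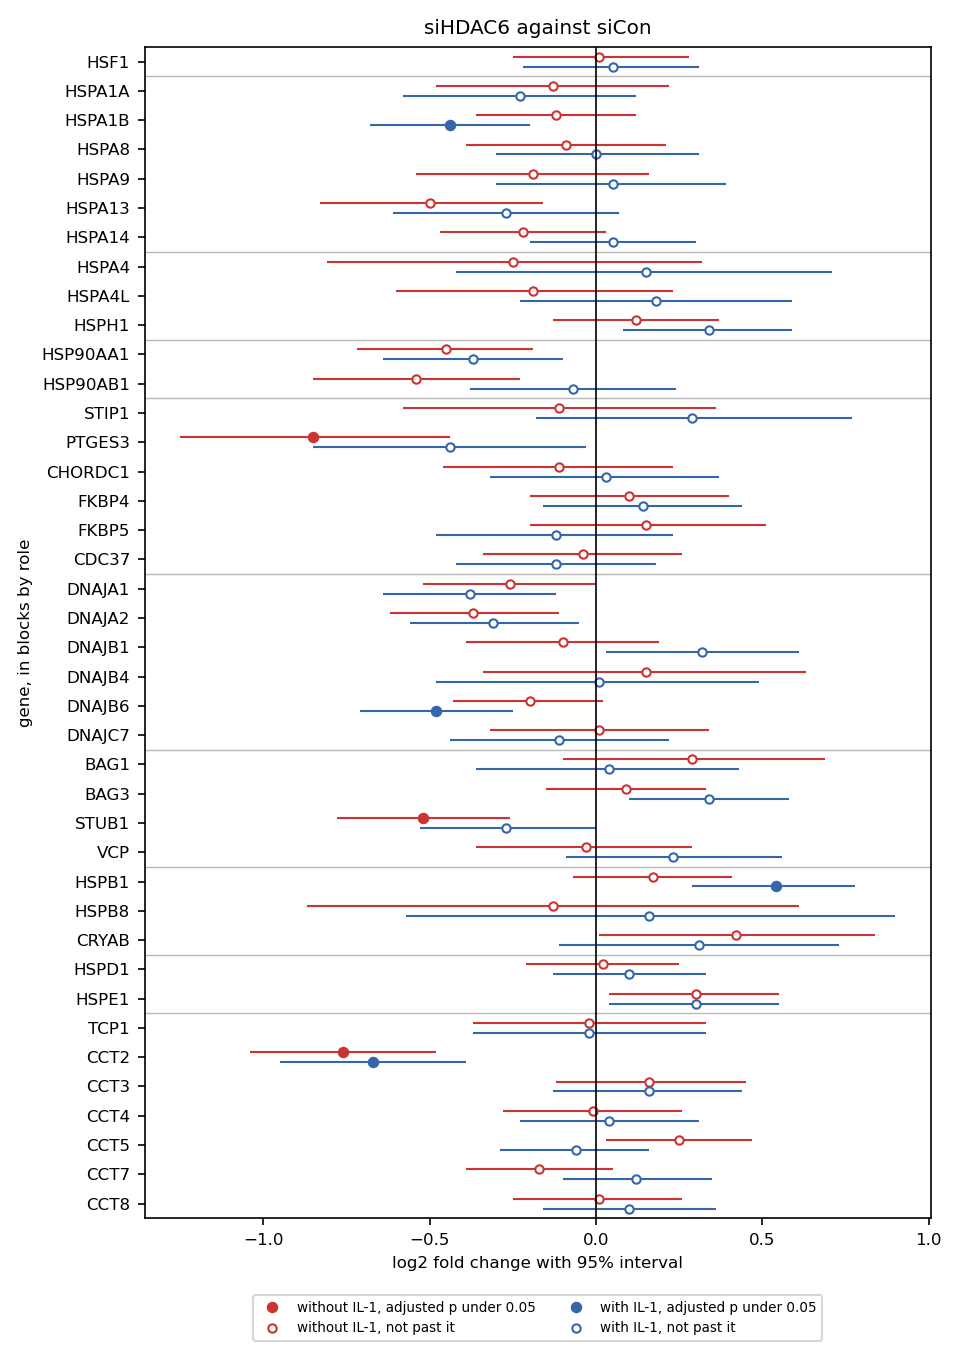
Log2 fold change of siHDAC6 against siCon for the 40 members, with 95% intervals, without IL-1 (red) and with IL-1 (blue); filled points passed an adjusted p of 0.05. CCT2 was filled in both, at -0.76 and -0.67, while the other 6 CCT subunits drawn lay between -0.17 and 0.25.

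Whether siHDAC6 altered the response to IL-1 was tested as the difference of the 2 responses, siHDAC6 minus siCon. None of the 40 members was called by limma, against 0.116% of all genes (0.00894% higher and 0.107% lower), and 4 had an unadjusted p under 0.05, 3 above 0 and 1 below (10%, against 9.98% of all genes). The differences ran from -0.32 (HSPA1B, 95% interval -0.66 to 0.02, adjusted p = 0.52) to 0.47 (HSP90AB1, 0.03 to 0.91, adjusted p = 0.46). For DNAJB1 the difference was 0.42 (0.01 to 0.83, adjusted p = 0.48), that is, a smaller fall in siHDAC6 cells, and for HSPB1 it was 0.37 (0.02 to 0.71, adjusted p = 0.47). The calls made with one siRNA and not with the other, as for HSPA1A, HSPA14, FKBP4 and BAG3, were therefore not shown to differ between them.

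**Figure D4:**
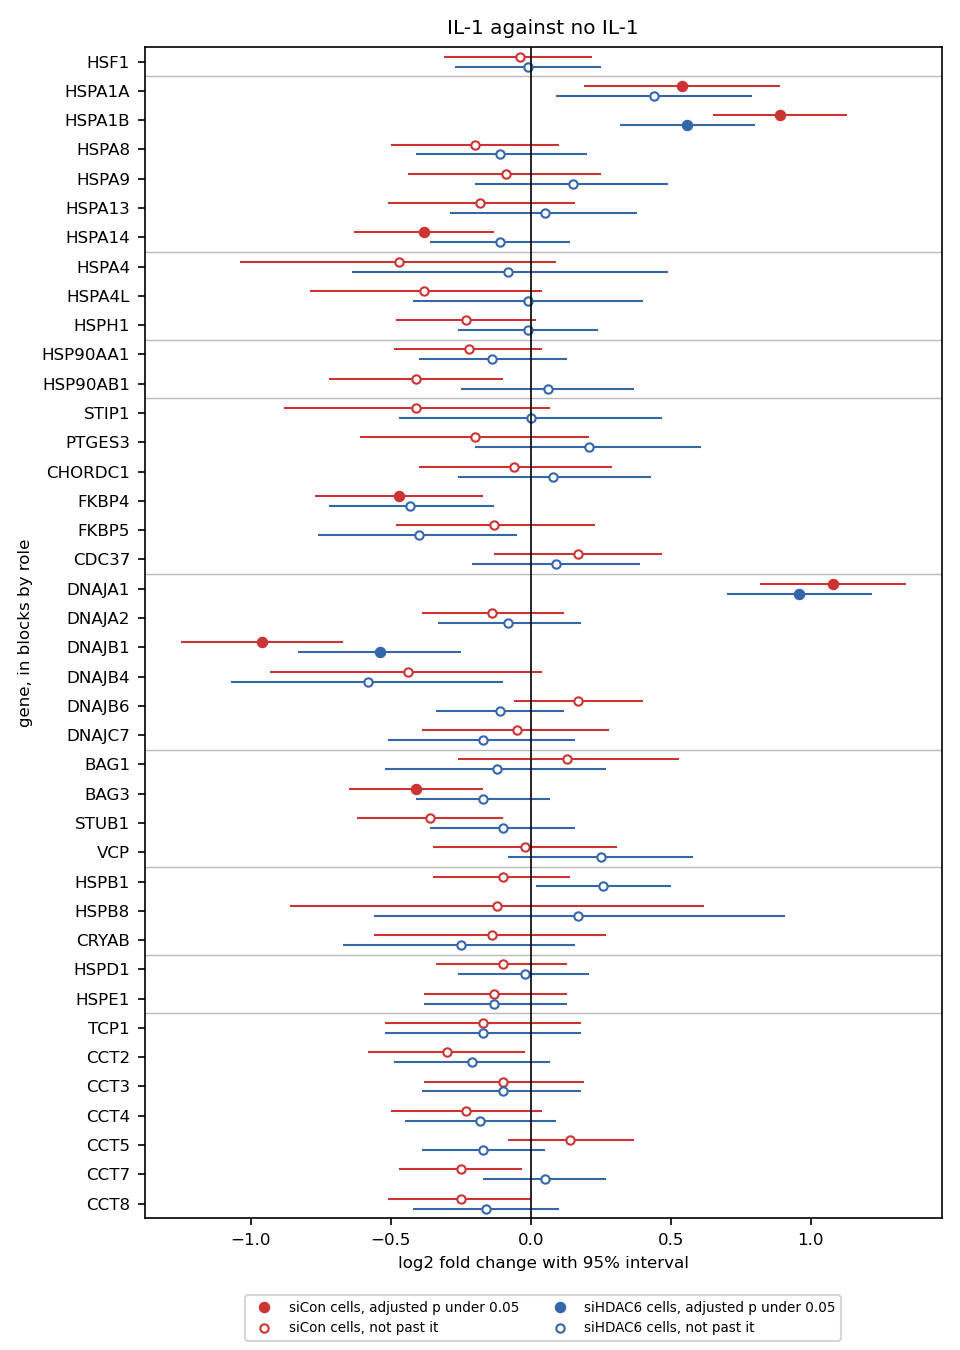
Log2 fold change of IL-1 against no IL-1 for the 40 members, with 95% intervals, in siCon cells (red) and siHDAC6 cells (blue); filled points passed an adjusted p of 0.05. DNAJA1 (1.08 and 0.96) and HSPA1B (0.89 and 0.56) lay to the right and DNAJB1 (-0.96 and -0.54) to the left under both siRNAs.

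A wider list of other chaperone and co-chaperone genes, of which 55 were measured, gave few calls. IL-1 in siCon cells lowered GRPEL2, a mitochondrial exchange factor (log2 fold change -0.45, adjusted p = 0.029), and HSPB3, a small heat shock protein (-0.41, adjusted p = 0.039). These were 2 of 55 (3.64%, against 20.6% of all genes). HSPB3 was also the 1 gene of this list called with IL-1 in siHDAC6 cells (-0.48, adjusted p = 0.035; 1.82%, against 10.3% of all genes). With siHDAC6, SERPINH1, the collagen chaperone HSP47 of the endoplasmic reticulum, rose by 0.56 without IL-1 (adjusted p = 0.027) and by 0.46 with IL-1 (adjusted p = 0.034). ST13, the HSP70-interacting protein HIP, rose by 0.66 with IL-1 (adjusted p = 0.020), from 8.98 and 9.16 on the siCon + IL-1 arrays to 9.78 and 9.69. These were 1 of 55 genes without IL-1 (1.82%, against 4.05% of all genes) and 2 of 55 with IL-1 (3.64%, against 8.07%). No gene of the list was called lower with siHDAC6 or for the difference of the responses.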

How the data were processed

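The authors deposited, for each probe and array, the signal intensity without normalization and its detection p-value, together with lumi's variance-stabilised, spline-normalized log2 values. The intensities were background corrected and quantile normalized with neqc (limma 3.58.1, R 4.3.3, offset 16), and probes above background (detection p under 0.05) on 2 or more of the 8 arrays were retained (18045). Probes of 1 symbol were averaged to 11182 genes. The probe annotation used has 48803 probes, and the array version named in the methods was not checked against it. On the 8 arrays 14315 to 16659 probes were detected, and the number of arrays limits the precision. All 8 arrays entered one limma fit with eBayes and a mean for each group, p-values were two-sided and adjusted by Benjamini-Hochberg, and the workflow was tested on simulated data. Of 61 member probes 56 were kept. Per-array values were given for each called member and for HSF1, HSPA8, HSP90AA1 and VCP. Promoters were searched with Python 3.11.15 and aligned with Biopython 1.88. The members, lists and naming rule were chosen with earlier results of these data known.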

Additional observations from a re-analysis of the deposited data

How the results depend on the processing

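With 2 arrays per group the counts of called members moved more than the fold changes, and no called member changed sign in any alternative. DNAJA1, HSPA1B, DNAJB1 and CCT2 have 1 probe each. For such genes the choice of the highest probe, single probes and other detection filters leave the gene's own values unchanged. Those alternatives alter only the shared spread and the adjustment, so they are weak checks of these calls. For IL-1 in siCon cells the 7 called members became 12 in the authors' log2 values, 11 with eBayes using trend and robust, and 3 in a fit of the 4 arrays compared. For IL-1 in siHDAC6 cells 3 became 5 in the authors' values and with trend and robust. For siHDAC6 without IL-1, 3 became 7 in both of these, 6 when the background was left uncorrected before quantile normalization and 6 with an offset of 50, 5 with a stricter detection filter, 1 with each probe on its own and 1 with the replicate block. For siHDAC6 with IL-1, 4 became 12 and 11 in the first 2, 8 with quantile normalization and with an offset of 50, and 0 in the 4-array fit. The share of all genes called moved in the same direction (with siHDAC6 and IL-1, 15.1% in the authors' values and 2.47% in the 4-array fit, against 8.07%). In the authors' values 30% of members and 27.6% of all genes were called for IL-1 in siCon cells. For IL-1 in siHDAC6 cells the shares were 12.5% and 17.1%. For siHDAC6 they were 17.5% and 10.1% without IL-1, and 30% and 15.1% with IL-1. Quantile normalization gave 15% and 7.65% for siHDAC6 without IL-1, and 20% and 12.2% with IL-1. The cause was not tested. Without 1 array the counts were 3 to 5, 1 to 4, 0 to 2, 0 to 3, and 0 for the difference of the responses. The members' median for IL-1 in siCon cells was -0.09 in the authors' values and -0.12 with quantile normalization and with an offset of 50 (-0.23 to -0.14 without 1 array). For siHDAC6 without IL-1 it was -0.04 in the authors' values (-0.13 to 0 without 1 array), with IL-1 it was -0.02 to 0.06, and for the difference of the responses 0.05 to 0.13. Same-numbered replicates did not deviate together after normalization (correlations of -0.04 to 0.05). This cannot show whether arrays of the same number came from one experiment. The main fit did not pair them, and the replicate block gave 5, 2, 1 and 3 called members. HSF1, BAG1 and HSPA4L lay near background, as did 1 kept probe each of HSP90AA1 and HSPD1, which limits how large a fall can be measured.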
